A study of Mus musculus with 10 samples.

Results

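The contractile machinery of smooth muscle was followed here through 10 genes, Acta2, Actg2, Tagln, Cnn1, Myh11, Myl9, Cald1, Smtn, Lmod1 and Des. They were taken by name from the 24594 genes of a deposited count table, and all 10 passed the filter on low counts that left 14609 genes for testing. The table holds 10 RNA-seq libraries of wild type C57BL/6J mice, 5 of luminal and 5 of basal cells from the virgin mammary gland, sorted on the surface proteins EpCAM and CD49f. No transgene or agent is named for any library, the age is not given in the labels, and for sorting the study's methods describe lineage antibodies to TER-119, CD31 and CD45 beside those to EpCAM and CD49f. Libraries were grouped by their cell type label, with which the source name goes, although all 10 titles name the other cell type. All 6 luminal keratin, receptor and transcription factor markers were higher in the libraries labelled luminal and all 6 basal markers in those labelled basal. Library totals lay between 13203146 and 17998165 counts. The library descriptions carry 5 numbers, each shared by 1 luminal and 1 basal library, but the labels do not say that a number is an animal. The study's methods speak of biological replicates, fewer than here, so p-values measure the spread between these libraries, whatever its source.

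The basal layer of the mammary duct consists of myoepithelial cells, epithelial cells that contract in response to oxytocin and press milk toward the nipple. They do so with the apparatus of smooth muscle. Thin filaments of smooth-muscle actins slide along filaments of smooth-muscle myosin once the myosin light chain is phosphorylated by myosin light chain kinase, and calponin, caldesmon, transgelin and smoothelin bind the thin filament. Many of these genes are known targets of serum response factor, SRF, which binds a DNA element called the CArG box. The questions put to the data were how much of each transcript basal cells held, and how much was left in luminal cells.

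RefSeq promoter windows on GRCm38.p6, each 300 bases long with 250 before and 50 after the start site, were given for 7 of the genes in 8 windows, with a pair for Cald1. Actg2, Tagln and Myh11 had no window. An exact CArG box, searched on both strands, lay in 1 of the 8 windows, that of Myl9, against 1.63% of 32851 windows in all. With 1 mismatch allowed, windows of 4 genes, Acta2, Myl9, Lmod1 and Cald1, held a match, against 21.1% of all windows. GGAATG, the core of the element bound by TEAD factors, lay in windows of Acta2, Lmod1, Cald1 and Smtn, against 14.7% of all windows. TATAAA lay in 1 window, of Cald1, against 13.6%. These matches describe letters in a window and say nothing of binding, and no motif match overlapped a CArG match. The 250 bases before the start site are printed for Acta2, the highest of the 10 genes in basal cells, for Myl9, which has the exact CArG box, and for Lmod1, with exact and 1-mismatch CArG matches in capitals. Acta2 is the window chr19:34255374-34255623 on the minus strand, with matches that begin 84 and 34 bases before the start. Myl9 is chr2:156775214-156775463 on the plus strand, with the exact box CCTAATAAGG 161 bases and a 1-mismatch box 99 bases before it. Lmod1 is chr1:135324563-135324812 on the plus strand, with matches 189 and 164 bases before it.
Acta2: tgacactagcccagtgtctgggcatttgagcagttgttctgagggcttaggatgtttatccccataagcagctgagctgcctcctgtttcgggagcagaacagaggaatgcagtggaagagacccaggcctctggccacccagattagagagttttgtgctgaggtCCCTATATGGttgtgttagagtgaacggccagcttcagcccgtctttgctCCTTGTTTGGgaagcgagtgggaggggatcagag
Myl9: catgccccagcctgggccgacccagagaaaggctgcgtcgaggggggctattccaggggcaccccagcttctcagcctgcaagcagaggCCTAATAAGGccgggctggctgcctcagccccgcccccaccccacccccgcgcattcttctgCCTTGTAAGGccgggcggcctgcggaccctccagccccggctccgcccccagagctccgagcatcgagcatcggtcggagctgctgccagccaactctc
Lmod1: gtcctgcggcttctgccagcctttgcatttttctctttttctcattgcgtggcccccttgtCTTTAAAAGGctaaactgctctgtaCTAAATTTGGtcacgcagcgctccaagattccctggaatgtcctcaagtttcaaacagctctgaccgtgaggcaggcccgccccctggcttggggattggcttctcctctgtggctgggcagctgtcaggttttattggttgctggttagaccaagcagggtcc

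All 10 contractile genes were higher in basal cells, with a median log2 fold change, luminal against basal, of -7.00. In edgeR's quasi-likelihood fit across all genes, 31.2% of the genes tested were called higher in basal cells and 33.6% higher in luminal cells at an adjusted p under 0.05. Every basal library lay above every luminal library for all 10 genes, which held for 25.3% of the genes tested. The median over all genes tested was 0.05, and 2.35% of them had a log2 fold change under -5, as 8 of the 10 contractile genes did. Together the 10 genes took 1.05% to 1.63% of the counts of a basal library and 0.0151% to 0.0236% of those of a luminal library. In bulk RNA, fewer cells of a type and less RNA per cell cannot be told apart. Levels below are CPM, read counts scaled to a common depth with TMM factors, unless a length is named.

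**Figure D1:**
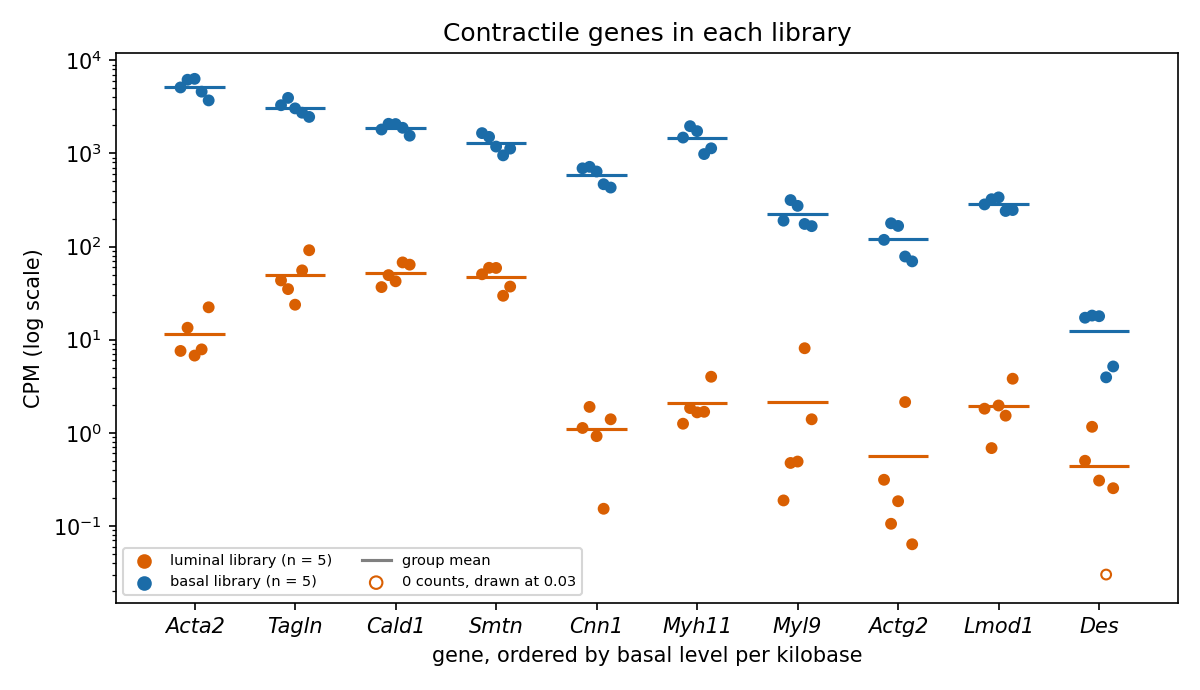
CPM of each gene on a log axis in the 5 luminal and 5 basal libraries, one point per library (replicates 1 to 5 from left to right within a gene) with the group mean as a line and an open point for 0 counts. The basal points lie above the luminal points for all 10 genes, most closely for Des, whose lowest basal library had 3.94 CPM and highest luminal library 1.16 CPM.

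Of the actins, Acta2 (Entrez 11475, chr19:34240336-34255585), the alpha actin of vascular and myoepithelial thin filaments, had 5119, 6192, 6334, 4612 and 3717 CPM in basal replicates 1 to 5. It had 7.57, 13.4, 6.75, 7.86 and 22.3 CPM in luminal replicates 1 to 5. The groups lay far apart, luminal replicate 5 being the highest of its group, and the log2 fold change was -8.81 (SE 0.42, edgeR adjusted p = 5.73e-10). Actg2 (Entrez 11468, chr6:83512909-83536251), the gamma actin typical of visceral smooth muscle, had 118, 178, 167, 78.2 and 69.4 CPM in the basal libraries. Its luminal values were 0.313, 0.105, 0.184, 2.14 and 0.0634 CPM, and luminal replicate 4 stood apart from the others. The log2 fold change was -7.89 (SE 0.62, edgeR adjusted p = 6.84e-08), and -9.47 without luminal replicate 4. None of 1985 stretches of 51 bases of Acta2 occurred exactly in Actg2, and 0.353% did with up to 3 mismatches. In the cytoplasmic actin Actb none occurred exactly and 1.36% did with up to 3 mismatches. Actb had a mean of 1076 CPM in luminal cells. The other cytoplasmic actin, Actg1, had 1773 CPM there and was not searched for shared stretches. The part of reads of Actb and Actg1 in the luminal value of Acta2 was not tested.

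Of the myosin subunits, Myh11 (Entrez 17880, chr16:14194527-14292188), the smooth-muscle myosin heavy chain, had 1482, 1965, 1737, 985 and 1136 CPM in basal cells. In luminal cells it had 1.25, 1.84, 1.66, 1.68 and 4.0 CPM. This was the furthest apart of the 10 genes, with a log2 fold change of -9.45 (SE 0.38, edgeR adjusted p = 1.65e-10). Myl9 (Entrez 98932, chr2:156775408-156781657), the regulatory light chain of smooth-muscle myosin, had 190, 316, 274, 175 and 166 CPM in basal cells and 0.188, 0.474, 0.491, 8.09 and 1.40 CPM in luminal cells. Luminal replicate 4 was again the high one. The log2 fold change was -6.80 (SE 0.73, edgeR adjusted p = 1.69e-06), and -8.46 without luminal replicate 4. Of 51-base stretches of Myl9, 6.40% matched its paralogue Myl12b and 3.34% matched Myl12a with up to 3 mismatches, and none matched exactly.

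Among the proteins that bind the thin filament, Tagln (transgelin, also called SM22; Entrez 21345, chr9:45929628-45936058) had 3299, 3954, 3050, 2741 and 2469 CPM in basal cells. Its luminal values of 43.3, 34.9, 23.7, 55.5 and 91.4 CPM were highest in replicate 5, and its log2 fold change was -5.96 (SE 0.36, edgeR adjusted p = 5.19e-09). Cnn1 (calponin 1, an inhibitor of actomyosin ATPase; Entrez 12797, chr9:22099221-22109221) had 692, 719, 640, 467 and 431 CPM in basal cells and 1.13, 1.90, 0.920, 0.153 and 1.40 CPM in luminal cells. Its log2 fold change was -9.02 (SE 0.40, edgeR adjusted p = 3.24e-10). Cald1 (caldesmon, which also has a non-muscle form; Entrez 109624, chr6:34598495-34775469) had 1809, 2083, 2070, 1887 and 1553 CPM in basal cells. It kept 36.7, 49.4, 42.4, 67.6 and 64.0 CPM in luminal cells, with a log2 fold change of -5.18 (SE 0.22, edgeR adjusted p = 2.69e-10). Smtn (smoothelin, found with stress fibres of contractile cells; Entrez 29856, chr11:3517522-3539292) had 1654, 1507, 1186, 954 and 1128 CPM in basal and 50.4, 59.2, 59.0, 29.6 and 37.2 CPM in luminal cells. Its log2 fold change was -4.77 (SE 0.25, edgeR adjusted p = 1.47e-09).

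Lmod1 (leiomodin 1, a nucleator of actin filaments in smooth muscle; Entrez 93689, chr1:135324813-135368065) had 284, 323, 337, 241 and 247 CPM in basal cells. In luminal cells it had 1.81, 0.685, 1.96, 1.53 and 3.81 CPM, a log2 fold change of -7.20 (SE 0.35, edgeR adjusted p = 5.67e-10). Des (desmin, the intermediate filament of muscle; Entrez 13346, chr1:75360292-75368579) had 17.2, 18.2, 17.9, 3.94 and 5.16 CPM in basal cells, from 276, 266, 231, 63 and 86 counts. Its luminal libraries had 8, 22, 5, 0 and 4 counts, and the log2 fold change was -4.71 (SE 0.65, edgeR adjusted p = 1.90e-05). That fold change ran from -5.46 to -4.20 when libraries were left out. Basal replicates 4 and 5 held between 3.94 and 5.16 CPM of Des, against at least 17.2 CPM in the other basal libraries.

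Levels of different genes were set in order per kilobase of the longest GENCODE M21 transcript. On that scale, CPM per kilobase, the basal means fell into 4 tiers. Acta2 (2553 ± 539, SD, n = 5) and Tagln (1945 ± 357) stood on top, as the 7th and 10th highest of the genes with a length. Acta2 exceeded Tagln in 5 of 5 libraries, although the ranges of the libraries, 1827 to 3113 and 1548 to 2479 CPM per kilobase, overlapped. The second tier began 4.94-fold below Tagln with Cald1 (394 ± 45.5) and Smtn (380 ± 84.7), of which Cald1 was the higher in 2 of 5 libraries only. Cnn1 (248 ± 55.6), Myh11 (223 ± 62.2) and Myl9 (199 ± 59.3) followed with overlapping ranges, and those of Cnn1 and Myh11 also overlapped that of Smtn. Actg2 (91.6 ± 37.2) and Lmod1 (72.5 ± 10.99) made a lower tier, Actg2 being the higher in 3 of 5 libraries. Des (4.12 ± 2.39) came 17.6-fold below Lmod1, with no library of either gene near the other. Acta2 alone held 41.7% of the summed basal level per kilobase of the 10 genes, 39.3% to 45.8% in single libraries.

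The order of the middle tier and its distance from Tagln depended on the transcript length. With the union of all exons as length, Cald1 fell to 156 CPM per kilobase, below Smtn at 294, and the share of Acta2 rose to 46.0%. With the shortest coding transcript, Tagln came above Acta2, at 8408 against 6289 CPM per kilobase, but that setting takes lengths such as 369 bases for Tagln and 413 for Cald1, from incomplete transcript models. Cald1 then had 4553 CPM per kilobase, and the share of Acta2 fell to 26.7%. Limited to the GENCODE basic set, a setting chosen after the data had been seen, the order of the 10 genes was that of the longest transcripts. There Cald1 had 878, Smtn 736 and Cnn1 481 CPM per kilobase, nearer to Tagln, and the share of Acta2 was 35.3%. Des was lowest, and Actg2 and Lmod1 next, under each of these lengths.

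**Figure D2:**
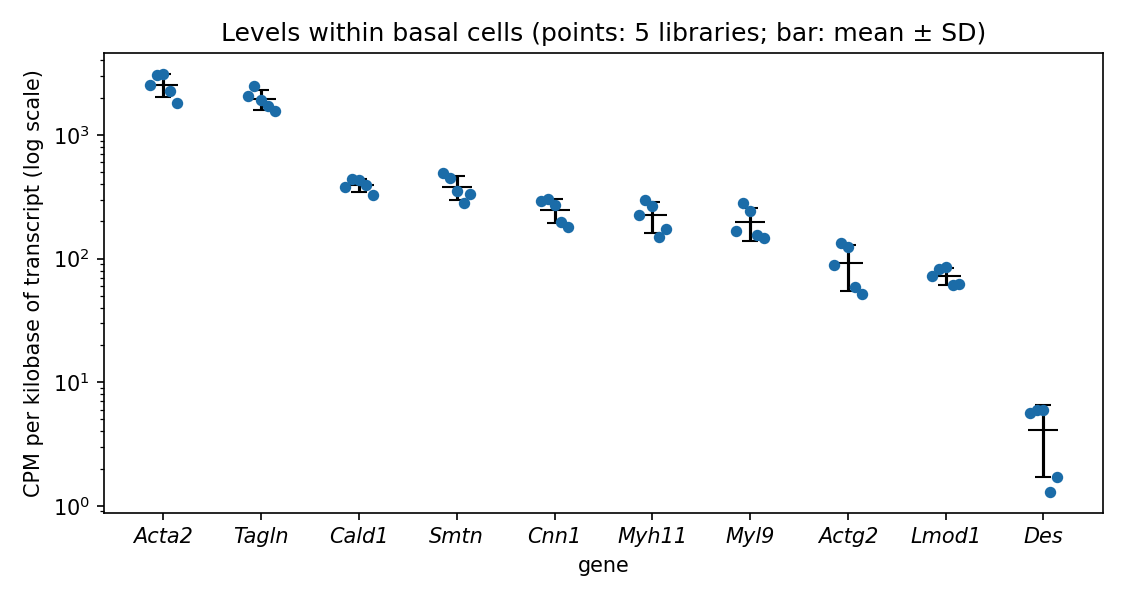
CPM per kilobase of the longest transcript on a log axis in the 5 basal libraries (points) with the mean ± SD, for the 10 contractile genes. Acta2 and Tagln lie highest at means of 2553 and 1945, Cald1 to Myl9 lie between means of 394 and 199, and Des lies lowest at 4.12.

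The basal libraries were not alike in these genes. The lowest basal value of all 10 genes lay in replicate 4 (4 genes) or replicate 5 (6 genes), and the highest lay in replicate 2 for 7 of them. For 9 of the 10, Cald1 excepted, both replicates 4 and 5 lay below all of replicates 1 to 3, which held for 7.43% of all genes tested and for 11.2% of the 4558 genes called higher in basal cells. This pattern was noticed after the values were seen and has no test. The summed CPM of the 10 genes was 14660, 17250 and 15810 in basal replicates 1 to 3 and 12150 and 10920 in replicates 4 and 5. Des differed most, with a coefficient of variation of 58.2%, then Actg2 with 40.6%, and Cald1 least with 11.6%. The median coefficient of variation over the genes called higher in basal cells was 17.4%. The keratins of the basal layer differed among themselves. Krt5 was highest in replicate 4 (2114 CPM) and lowest in replicate 5 (1320 CPM), and Krt14 was higher in replicate 5 than in replicates 2 to 4, whereas Krt17 (4008, 3414, 2887, 2819 and 2802 CPM) was lowest in replicates 4 and 5. The 6 basal markers summed to 10250, 10060 and 8985 CPM in replicates 1 to 3 and to 8857 and 8426 in replicates 4 and 5. Oxtr, the oxytocin receptor, and Trp63, the basal transcription factor p63, were lower in replicates 4 and 5 than in replicates 1 to 3, and Itgb4 was lowest in replicate 4 (449 CPM).

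**Figure D3:**
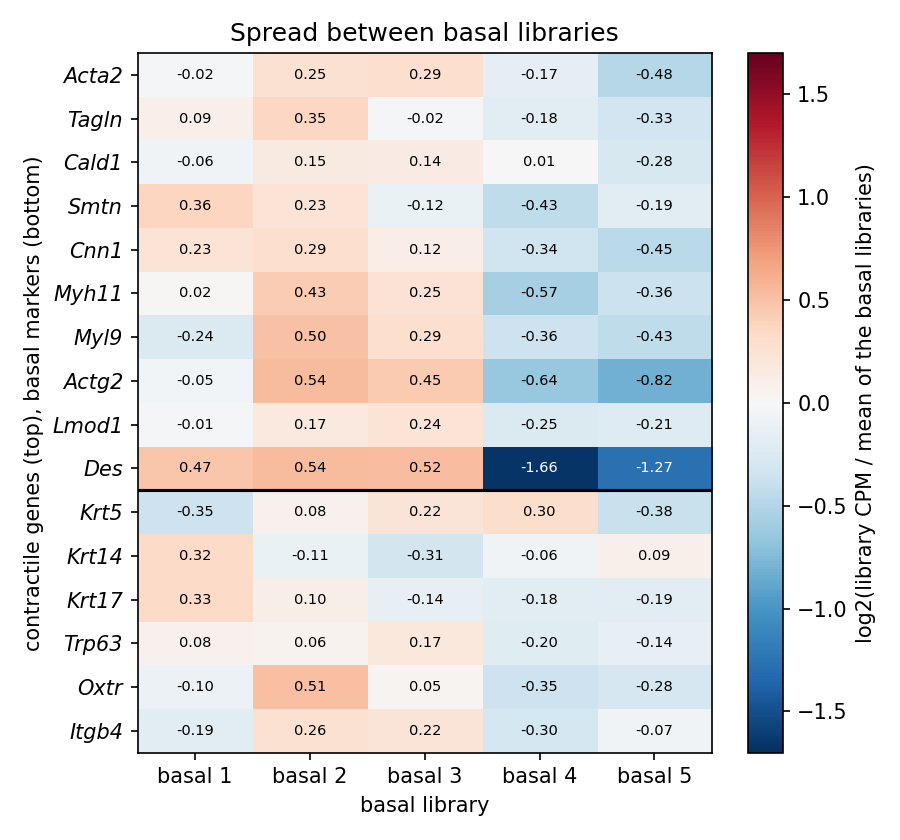
Each cell gives log2 of a basal library's CPM over the mean of the 5 basal libraries, for the contractile genes above the black line and 6 basal epithelial markers below it. Replicates 4 and 5 are below the mean for every contractile gene except Cald1 in replicate 4, at 0.01, and Des reaches -1.66 in replicate 4.

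Markers of other cells moved as follows with these libraries, and their part in the result was not tested. The 6 luminal markers summed to 1430, 1132 and 1208 CPM in basal replicates 1 to 3 and to 1074 and 951 in replicates 4 and 5. Krt8 and Krt18 carried the sum, whereas Krt19 (157 CPM) and Prlr (2.19 CPM) had their highest basal value in replicate 4, and Esr1, at 19.3 CPM there, lay above replicates 1 and 2. The 10 markers of pericytes and vascular smooth muscle summed to 220, 178, 194, 193 and 172 CPM in the 5 basal libraries and to 99.8 to 275 CPM in luminal libraries, where Notch3 made up most of the sum. Of these 10 markers, 6 were called higher in basal cells, 1 (Notch3) in luminal cells and 3 did not pass the filter. Higd1b had no count in any library, Heyl had at most 0.0774 CPM and Abcc9 at most 0.409 CPM in basal cells, whereas Rgs5 had 16.9 to 28.9 CPM, Pdgfrb 6.86 to 13.1 CPM and Mcam 59.6 to 156 CPM. Members of this list ran in different directions, since Mcam and Rgs5 were lowest in basal replicate 4, Ndufa4l2 was highest there (95.3 CPM against 22.4 to 50.7), and Rgs5 and Cspg4 (5.81 CPM against 1.39 to 2.25) were highest in replicate 5. Kcnj8 had 1.23 to 4.49 CPM in basal cells. The 8 skeletal muscle markers summed to 3.79 to 8.88 CPM in basal and 11.2 to 20.8 CPM in luminal libraries. Mb, called higher in luminal cells with a mean of 12.7 CPM there and 3.97 CPM in basal cells, made up most of these sums. Mylpf was not called, and the other 6 did not pass the filter. The 6 fibroblast markers summed to 27.5 to 46.3 CPM in basal and 28.0 to 117 CPM in luminal libraries, where Dcn, called higher in luminal cells, carried the highest sum (95.1 CPM in replicate 1). Pdgfra was called higher in basal cells, with means of 12.4 and 5.82 CPM, and the other 4 fibroblast markers were not called. Immune markers, 5 genes, summed to 12.2 to 34.5 CPM in basal and 4.13 to 11.3 CPM in luminal libraries, and 5 endothelial markers to 7.88 to 16.3 and 69.3 to 116 CPM. Single genes carried these sums. Cd74 made up most of the basal immune sum, while Cd52 and Lyz2 were called higher in luminal cells. Vwf, at 66.2 to 112 CPM, made up most of the luminal endothelial sum, while Cdh5 was called higher in basal cells, with means of 4.58 and 0.217 CPM.

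The residual level in luminal cells was given as luminal CPM in per cent of basal CPM for libraries of the same number. Its median over the 10 genes was 0.406%, and 0.817% when ratios of group means, which need no pairing by number, were taken. The genes differed widely around the median. Smtn kept a median of 3.30% (3.05% to 4.97% over the 5 numbers), Des 2.91% (0% to 6.39%), Cald1 2.37% (2.03% to 4.12%) and Tagln 1.31% (0.778% to 3.70%). Lmod1 kept 0.633% (0.212% to 1.54%). Myl9 kept 0.179% (0.0989% to 4.63%), Acta2 0.171% (0.107% to 0.599%), Cnn1 0.163% (0.0327% to 0.324%), Actg2 0.111% (0.0592% to 2.73%) and Myh11 0.0954% (0.0844% to 0.352%). The shares of Smtn and Cald1 lay above those of Acta2, Cnn1 and Myh11 in every number, without overlap. Des rests on few counts. Its 0 in luminal replicate 4 allows up to 5.82% of the basal level, at 3 counts, and Actg2 had 1 to 28 luminal counts. Intervals and floors of this kind cover counting error only.

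The same share was taken for genes that mark the basal layer. Trp63 kept a median of 0.284% (0.235% to 0.807%), Krt14 0.372% (0.235% to 1.04%), Krt5 0.407% (0.235% to 1.2%), Oxtr 0.477% (0.348% to 0.693%) and Krt17 0.620% (0.332% to 1.77%). Itgb4, an integrin subunit of hemidesmosomes, kept 22.1% (18.1% to 39.4%). The medians of Smtn, Des, Cald1 and Tagln thus lay above those of these markers other than Itgb4, that of Lmod1 barely above the highest of them, and those of Acta2, Cnn1 and Myh11 below them. Myl9 and Actg2 also lay below, but not in every setting. As a ratio of group means Lmod1, at 0.684%, fell below Krt17 with 0.878%. On that measure Myl9 came to 0.950%, above Krt17, and Actg2 to 0.459%, above Trp63 with 0.399%. Without replicate 1 or 2 the median of Myl9 was 0.511% and without replicate 3 it was 0.496%. The median of Actg2 was 0.188% without replicate 2 or 5 and 0.178% without replicate 3, still under the 0.284% of Trp63. The marker medians given here are those over all 5 numbers. Replicate 5 gave the highest share for Acta2, Tagln, Cnn1, Myh11, Cald1 and Lmod1 and also for Krt5, Krt14, Trp63 and Oxtr. Replicate 4 gave the highest share for Myl9 and Actg2, the lowest for Cnn1, and 0 for Des. Per kilobase, the luminal levels came in another order than the basal ones, with Tagln first (31.2 ± 16.3, SD, n = 5, CPM per kilobase), Smtn (13.9 ± 3.91), Cald1 (10.9 ± 2.81) and Acta2 (5.69 ± 3.21) next. Of the remaining 6 genes, Myl9 had 1.89 CPM per kilobase, set by luminal replicate 4, and the others 0.147 to 0.496.

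**Figure D4:**
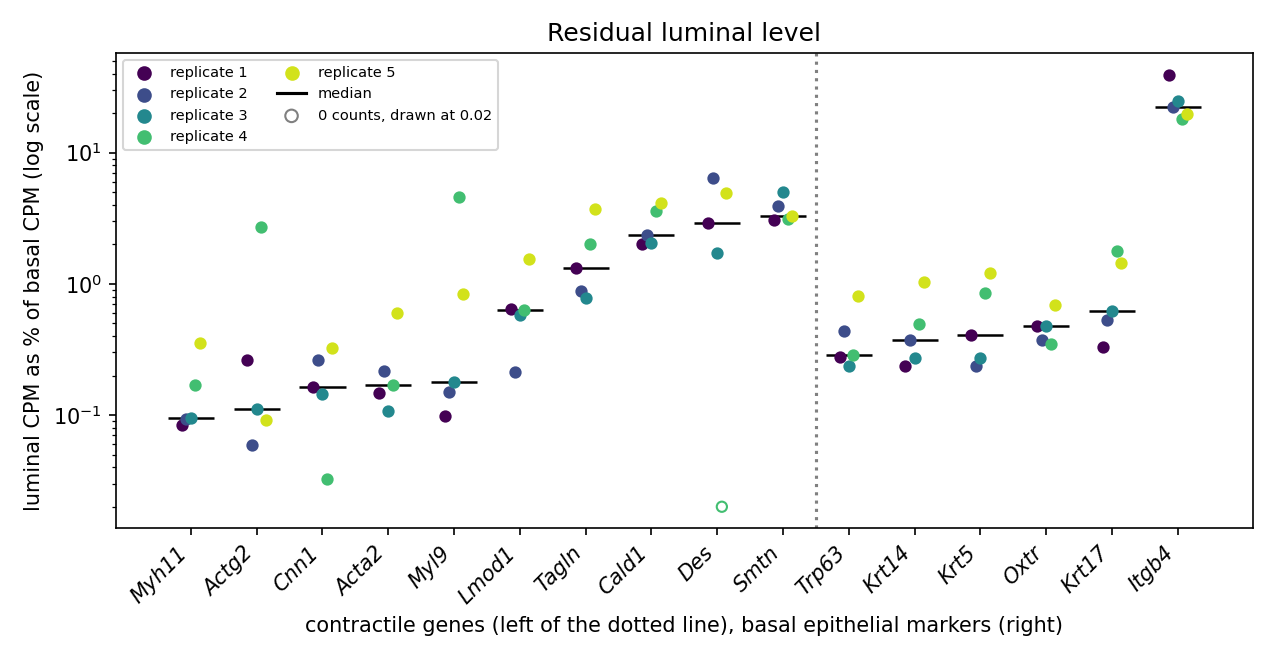
Luminal CPM in per cent of basal CPM on a log axis for each replicate number, with the median as a line, for the 10 contractile genes and, right of the dotted line, 6 basal epithelial markers. Medians of the contractile genes run from 0.0954% for Myh11 to 3.30% for Smtn, and the markers other than Itgb4 lie between 0.284% and 0.620%.

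Relatives that serve the cytoskeleton of all cells or other muscles were listed for the smooth-muscle proteins other than caldesmon. Of 18 such paralogues, 14 were tested, of which 7 were called higher in basal cells, 4 higher in luminal cells and 3 neither. Over all genes tested, 31.2% were called higher in basal cells and 33.6% higher in luminal cells. The median log2 fold change of the tested paralogues was -0.37. Among actins, Acta2 made up 55.5% ± 4.12 (SD, n = 5) of the family's CPM per kilobase in basal cells and 0.382% ± 0.167 in luminal cells, and Actg2 1.95% and 0.0258%. The cytoplasmic actins Actb and Actg1 made up 19.97% and 20.9% in basal cells and 38.7% and 60.8% in luminal cells. Their summed level was 1648 to 2087 CPM per kilobase in basal and 969 to 1857 in luminal libraries, while the level of all 6 actins was 3582 to 5233 against 974 to 1863. Actb was higher in basal cells (log2 fold change -0.69, SE 0.17, edgeR adjusted p = 0.00235). Actg1 was not called (-0.05, SE 0.22, edgeR adjusted p = 0.855), and its sign turned with upper-quartile factors and library totals. Acta1, the skeletal actin (log2 fold change -6.49, edgeR adjusted p = 1.37e-09), and Actc1, the cardiac actin (edgeR adjusted p = 1.16e-07), were also higher in basal cells. Actc1 had 1 count in luminal replicate 4 and none in the other luminal libraries, so no fold is given. Acta1 made up 1.41% of the actin CPM per kilobase in basal cells, and 2.22% of its 51-base stretches matched Acta2 with up to 3 mismatches but none exactly. Whether reads of Acta2 add to Acta1 was not tested. Actc1 shared no stretch with Acta2 and had 38.0 CPM in basal replicate 1 against 7.57 to 12.1 CPM in the others.

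In the myosin heavy chains, Myh11 took 23.0% (20.1% to 26.3%) of the CPM per kilobase in basal cells and the non-muscle chain Myh9 took 75.1%. In luminal cells the shares were 0.202% and 77.5%, with 20.5% for Myh14. Of 6499 stretches of 51 bases of Myh11, 0.369% occurred exactly in Myh9 and 2.42% with up to 3 mismatches. Myh9 had a mean of 929.5 CPM in luminal cells, so the small luminal value of Myh11 is uncertain, and the part of Myh9 reads in it was not tested. Myh9 was itself higher in basal cells, with a log2 fold change of -2.52, and so was Myh10 with -1.93, whereas Myh14 was higher in luminal cells with 2.33 (edgeR adjusted p 3.93e-08, 2.00e-06 and 1.30e-06). Myl9 took 25.02% (18.2% to 33.4%) of the regulatory light chains in basal and 0.184% in luminal cells. The basal share was 15.8% when counts were used without length. Its paralogues Myl12a (0.55, edgeR adjusted p = 0.0125) and Myl12b (0.63, edgeR adjusted p = 0.00525) were higher in luminal cells. The call of Myl12a was lost without luminal replicates 4 and 5 (0.35, edgeR adjusted p = 0.0932). These paralogues share 29.1% of their 51-base stretches exactly, so their reads can be exchanged and their values are uncertain.

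Tagln made up 86.7% ± 1.80 (SD, n = 5) of the transgelins in basal cells and 8.44% ± 3.67 in luminal cells, where Tagln2 made up 91.5%. Tagln2 itself was not called (log2 fold change 0.18, SE 0.15, edgeR adjusted p = 0.327) but was with library totals (0.37, edgeR adjusted p = 0.0448). Cnn1 made up 42.4% ± 3.59 of the calponins in basal and 0.210% ± 0.127 in luminal cells. Cnn2, a calponin of many cell types, was higher in basal cells (-2.02, edgeR adjusted p = 1.13e-07), and Cnn3 was not called (0.02, SE 0.15, edgeR adjusted p = 0.921), its sign turning under DESeq2 size factors, DESeq2 and no filter. Smtn made up 99.0% of the smoothelins in basal cells and 57.6% in luminal cells, the rest being nearly all Smtnl2, which was higher in luminal cells (1.49, edgeR adjusted p = 0.00038). Lmod1 was nearly the only leiomodin, at 99.8% in basal and 91.9% in luminal cells, of very low luminal levels. Beside Des, the intermediate filament gene Vim had 123 to 222 CPM in basal and 3.25 to 7.74 CPM in luminal cells (log2 fold change -4.80, edgeR adjusted p = 2.44e-09).

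**Figure D5:**
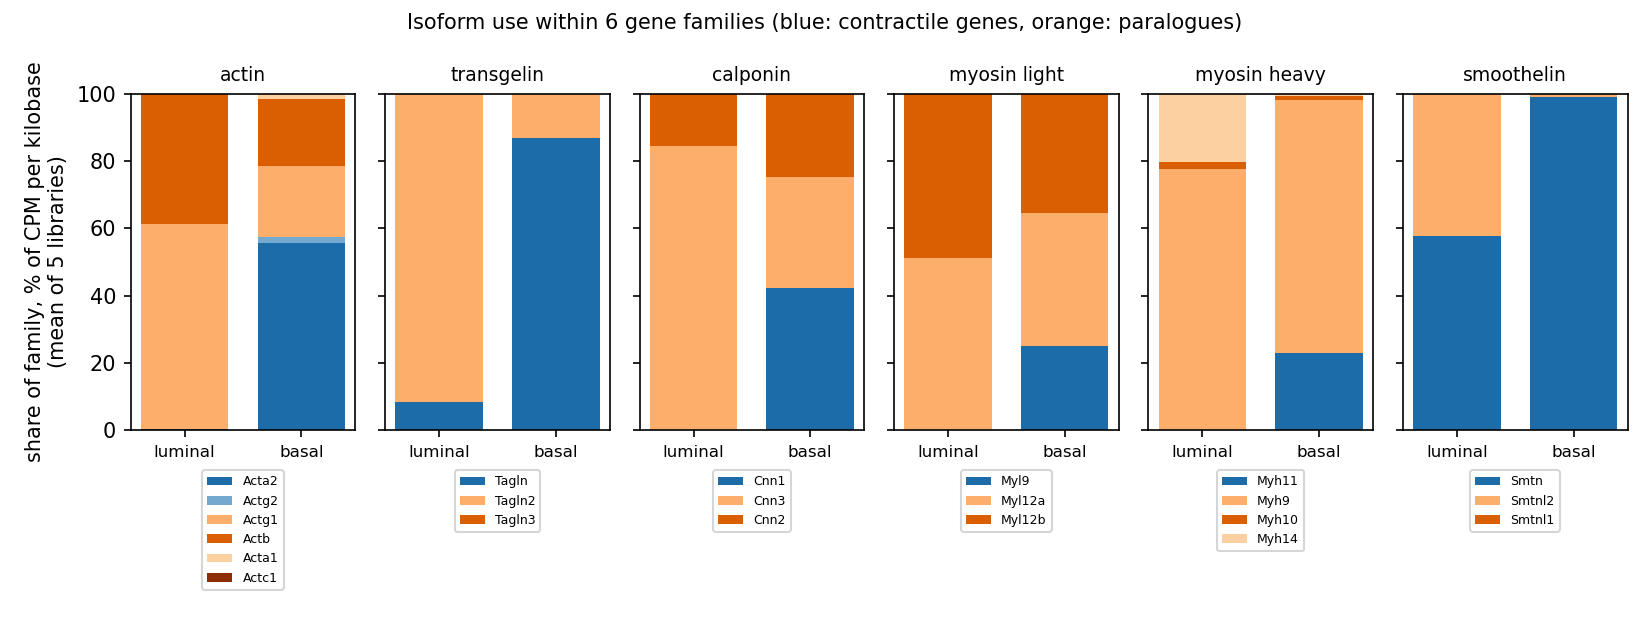
Share of each gene in its family's summed CPM per kilobase, as the mean of 5 libraries per cell type, with the smooth-muscle genes in blue and their paralogues in orange. Acta2 makes up 55.5% of actin and Tagln 86.7% of transgelin in basal cells, against 0.382% and 8.44% in luminal cells.

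Of 24 further genes that work with the contractile apparatus, 23 were tested. In edgeR's fit, 21 were called higher in basal cells, against 31.2% of all genes tested, and none higher in luminal cells, against 33.6%. None was higher in luminal cells at an unadjusted p under 0.05 either, nor called so in DESeq2 or in limma voom. The median log2 fold change of the 23 was -2.91. Mylk, the kinase that phosphorylates the myosin light chain, had 647, 907, 822, 482 and 642 CPM in basal and 1.00 to 3.51 CPM in luminal libraries (log2 fold change -8.33, edgeR adjusted p = 1.40e-10). Tpm2, a muscle tropomyosin, changed by -6.08 and Tpm1, of which many cells make some form, by -1.62. Jph2, which ties the sarcoplasmic reticulum to the plasma membrane, had 194 to 362 CPM in basal and 0.0527 to 1.52 CPM in luminal libraries. Kcnmb1, the smooth-muscle subunit of the BK potassium channel, had 7.57 to 18.7 CPM in basal cells and no count in any luminal library. Against a floor of 3 counts per luminal library it was at least 74.4-fold higher in basal libraries, and with it at that bound the median of the list was still -2.91. Synm, the partner of desmin in intermediate filaments, had 164 to 397 CPM in basal cells and a log2 fold change of -5.81. Synpo2, an actin-binding protein of muscle, had 49.8 to 139 CPM in basal and 0.632 to 3.19 CPM in luminal libraries, a log2 fold change of -6.07.

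Also called, by their log2 fold changes, were Ppp1r14a, an inhibitor of myosin phosphatase (-4.28), the actin crosslinker Flna (-3.83) and Ppp1r12b, a subunit of myosin phosphatase (-3.50). Casq2 (-2.91), Pdlim3 (-2.98), Pdlim7 (-2.79) and the crosslinker Actn1 (-2.52) came near the median of the list. Csrp1 (-1.69), vinculin or Vcl (-1.50), Pgm5 (-1.42), Prkg1 (-1.39), Itga8 (-1.23) and caveolin or Cav1 (-0.96) changed by less. Fhl1 (-0.48, edgeR adjusted p = 0.367) and Pde5a (0.20, edgeR adjusted p = 0.607) were not called. Myocd, the cofactor of SRF in smooth and heart muscle, did not pass the filter, with at most 0.125 CPM in a basal library and 0.458 CPM in luminal replicate 4, the highest of any library. It had 0 to 6 counts in a library. The lowest basal value lay in replicate 4 or 5 for 21 of the 23 tested partners, against 41.2% of all genes tested and 52.8% of the genes called higher in basal cells. Both replicates lay below replicates 1 to 3 for 12 of the 23, against 7.43% of all genes tested and 11.2% of those called higher in basal cells. Among the 14 tested paralogues, the lowest basal value lay in replicate 4 or 5 for 9 (64.3%), not far from the 52.8%. Both lay below replicates 1 to 3 for 6 of these paralogues (42.9%).

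The 6 genes outside the set whose log2(CPM + 1) followed the mean of the contractile genes most closely over the 10 libraries were Nacad, Pak3, Col4a1, Fhod3, Lama3 and Jph2. Their Pearson r lay between 0.998 and 0.9987 among 10784 candidates, which is a description, since these libraries fall into 2 cell types. Col4a1, a chain of basement membrane collagen, had a mean of 795 CPM in basal and 10.4 CPM in luminal cells. Lama3, a chain of laminin, had 466 and 10.1 CPM, and Fhod3, a formin of muscle, 83.0 and 1.73 CPM.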

How the data were processed

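RNA-seq was measured in 5 luminal and 5 basal libraries. The authors deposited raw counts per gene as whole numbers, not normalized, under Entrez identifiers. The submitters' processing notes name cutadapt 4.2, Bowtie2 2.3.5.1 and the builds hg19 and mm10, of which mm10 is the mouse build the methods give. The reads were poly(A)-selected, single-end and 51 bases long. Bowtie2 does not align across splice junctions, which can lower genes with many short exons. The counting tool, its annotation and its use of strand and multi-mapping reads are not given in the sources used here. The methods state fewer replicates than the 5 per cell type here, so these steps were assumed to hold.

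Symbols and coordinates came from a RefSeq table of GRCm38.p6, matched for 24570 of 24594 genes, and transcript lengths from GENCODE M21 for 23954 genes. Genes were filtered with filterByExpr (minimum count 10, minimum total 15), which left 14609 and dropped 9985. Libraries were scaled with TMM factors and compared with edgeR 4.0.16 (R 4.3.3, quasi-likelihood test, cell type as the only term, two-sided), with Benjamini-Hochberg adjustment over all genes tested and a threshold of 0.05. The scripts were tested on simulated data. Alternatives were DESeq2 1.42.0 and limma 3.58.1 (voom), other size factors, other filters, a block for the replicate number, libraries thinned to equal totals, other transcript lengths and leaving out libraries. Library totals were 13203146 to 17998165 counts, and a floor of 3 counts was used for zeros.

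The genes and lists were chosen with earlier results of these data known. Genes named are the 10 contractile genes, genes of the lists of paralogues, partners and cell type markers, and the 6 genes most alike in pattern (with 10 CPM or more on average in the higher cell type). Lists were written from general knowledge.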

Additional observations from a re-analysis of the deposited data

Results flagged for a closer look

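Within groups of 5 libraries, 9 values lay apart from the other 4 (Dixon's ratio above 0.71), of 96 groups examined. Chance gives about 4.8 for independent, normally distributed values. Low counts and genes of the same libraries need not be so, and the 9 cannot be judged against that number. Among the contractile genes, Actg2 had 2.14 CPM in luminal replicate 4 whereas the remaining luminal values ran from 0.0634 to 0.313 CPM. Myl9 had 8.09 CPM in the same library, against 0.188 to 1.40 CPM. Myh11 reached 4.0 CPM in luminal replicate 5, the others having 1.25 to 1.84 CPM. Of the partners, Myocd had 0.458 CPM in luminal replicate 4 against at most 0.123 CPM, Jph2 had 1.52 CPM in luminal replicate 5 against at most 0.458 CPM, and Prkg1 had 96.6 CPM in basal replicate 3 against 69.0 to 73.0 CPM. Of the paralogues, Actg1 had 2404 CPM in basal replicate 1 against 1650 to 1728 CPM, Actc1 had 38.0 CPM there against 7.57 to 12.1 CPM, and Myh14 reached 388 CPM in luminal replicate 1, the others having 157 to 210 CPM. In luminal replicate 4, the basal markers Krt5 (18.1 CPM) and Krt17 (50.01 CPM) and, of the pericyte and vascular smooth muscle list, Ndufa4l2 (2.98 CPM) were also at their highest luminal value. The basal marker Krt14 (11.6 CPM) was second to luminal replicate 5. The basal markers Trp63 (0.687 CPM), Oxtr (3.13 CPM) and Itgb4 (81.2 CPM) were at their lowest luminal value in luminal replicate 4. So was the sum of the 6 basal markers (165 CPM), of which Itgb4 was the largest part. Pdgfrb had 0 counts there and Notch3 94.9 CPM, its lowest luminal value. In luminal replicate 5, the fibroblast markers Col1a1 (7.99 CPM), Col3a1 (9.77 CPM) and Pdgfra (9.52 CPM) were at their highest luminal value. Pdgfrb (1.33 CPM), Pecam1 (3.93 CPM) and the basal markers Krt14 (26.8 CPM), Trp63 (2.03 CPM) and Oxtr (6.5 CPM) were also highest there. Dcn, Col1a2, Mcam, Notch3 and Vwf were instead highest in luminal replicate 1, and Ndufa4l2 (0.761 CPM) was lowest in luminal replicate 5. Rgs5, Cspg4 and Kcnj8 had no count in luminal replicate 5 and were found among luminal libraries in replicate 3 only (13, 1 and 8 counts). Abcc9 (0.491 CPM), Cdh5 (0.491 CPM) and Lum (1.41 CPM) were highest in luminal replicate 3, and Tek (3.97 CPM) in luminal replicate 4. The part of these markers in the values was not tested.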

How the results depend on the processing

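All 10 contractile genes were called higher in basal cells under every alternative except a filter that asks for 10 counts in each library, which drops Actg2, Cnn1, Myl9 and Des by construction and leaves 6, all called. Their median log2 fold change lay between -6.57 and -8.19, and between -6.72 and -7.79 when 1 library was left out. Without luminal replicate 4, Actg2 moved to -9.47 and Myl9 to -8.46, and without luminal replicates 4 and 5, an alternative chosen after seeing the data like its basal counterpart, to -9.23 and -9.14.

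Scaling moved the median of all genes tested from 0.05 to 0.17 with upper-quartile factors and 0.24 with library totals. Actg1 then turned to 0.0781 and 0.135, and ranged from -0.185 to 0.11 when 1 library was left out. Cnn3 turned to -0.0203 with DESeq2 size factors and in DESeq2, -0.0473 without a filter, -0.10 without basal replicates 4 and 5, -0.12 without luminal replicates 4 and 5, and ranged from -0.0368 to 0.0899 when 1 library was left out. Neither gene was called there. Tagln2 gained a call with library totals (0.37), and Myl12a lost its call without luminal replicates 4 and 5 (0.35).

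The share of Acta2 in the basal level was 46.0% with the union of exons, 26.7% with the shortest coding transcript and 35.3% with the shortest of the basic set. The Myl9 share of light chains was 15.8% from counts without length. Allowing 1 mismatch raised the genes with a CArG box from 1 to 4. With group means in place of the median over numbers, the median residual level was 0.817%, above 0.406%, the middle genes then being Lmod1 (0.684%) and Myl9 (0.950%).

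With the replicate number as a block (replicate block), 10 contractile genes were called, with a median of -7.36, and 21 partners. No label says that a number marks 1 animal. Deviations of same-numbered libraries correlated by -0.13, 0.11, -0.07, 0.25 and 0.06, and 2 of 5 luminal and 1 of 5 basal libraries matched their own number best. Depth limits Des, Actg2, Cnn1 and Myl9 in luminal cells, where single libraries had 0 to 3 counts.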
